A study of Mus musculus with 6 samples.

Results

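Transcripts of kinesin genes were compared in the mouse embryonic stem cell line E14 with and without lowered Nat10, which encodes an RNA acetyltransferase. The genes were taken by name: every row whose symbol starts with Kif or Kifc and a digit, plus the kinesin light chain genes Klc1, Klc2, Klc3 and Klc4, which gave 49 of the 31641 genes counted. Poly(A)-selected RNA was sequenced from 3 libraries of cells with genotype Nat10 WT that received no doxycycline (CON) and 3 of cells with genotype Nat10 KD that received it (KD). All KD libraries had the drug and no CON library did, so the effects of doxycycline and of the knockdown cannot be told apart. The labels name neither the knockdown construct nor a clone, and they leave out whether the 3 libraries of a group came from different cultures. A p-value here thus measures only how these samples vary, and that variation may be technical.

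Kinesins are motor proteins that use ATP to move along, cross-link or shorten microtubules. In dividing cells one set builds the spindle, moves chromosomes and completes cytokinesis, and genes of that set are transcribed mainly in late cell cycle phases. Another set carries vesicles, organelles and RNA toward the cell periphery, and several of its members are best known from axons, where they haul synaptic cargo. Light chains join the kinesin-1 heavy chains to cargo. By textbook role the 49 genes were divided into 14 mitotic motors, 18 transport motors, 4 light chains, 6 proteins of cilia, flagella or Hedgehog signalling, 4 other kinesins, 1 gene that shares the name pattern without being a motor (Kif1bp) and 2 pseudogenes.

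The libraries held between 33770755 and 39524273 counts, of which kinesins took 0.27 to 0.279%. Nat10 had 4960, 5496 and 4877 counts in CON against 1100, 1164 and 1050, and fell 5.44-fold, from 149 to 27.4 CPM on average (edgeR adjusted p = 4.22e-14). All 7 stem cell markers examined fell, among them Pou5f1 and Nanog, where 30.8% of all genes tested were called lower. Their summed level still stood at 1976 to 2062 CPM in KD against 5271 to 5322 CPM in CON. Levels below are CPM scaled by TMM (counts relative to the library total, after correction for composition), errors of means are SD with n = 3, and changes are KD over CON with a standard error (SE). With libraries scaled by their totals alone, the median log2 fold change of all genes tested was 0.23 higher than with TMM, so directions that turn under that scaling are named where they occur.

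Mitotic and transport motors moved apart. Every mitotic motor with enough reads for a test, 13 of the 14, fell in KD, whereas 9 of the 18 transport motors rose, 3 fell and 6 did not pass the test. Over all 45 kinesin genes tested, 15 rose and 22 fell, and in these 37 genes no KD library lay within the range of CON. Among all 18019 genes tested, 63% passed in either direction, 32.2% as higher and 30.8% as lower, and the groups did not overlap in 67.1%, so a call by itself is common in these data. The median log2 fold change was -0.53 for mitotic motors and 0.15 for transport motors, against 0.02 for all genes tested. With libraries scaled by totals alone the medians were -0.31 and 0.38, 12 mitotic motors fell, and 14 transport motors rose and 2 fell, where 45.9% of all genes were called higher and 19.6% lower. In bulk RNA, fewer cells passing through mitosis and less of these transcripts per cell cannot be told apart.

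**Figure D1:**
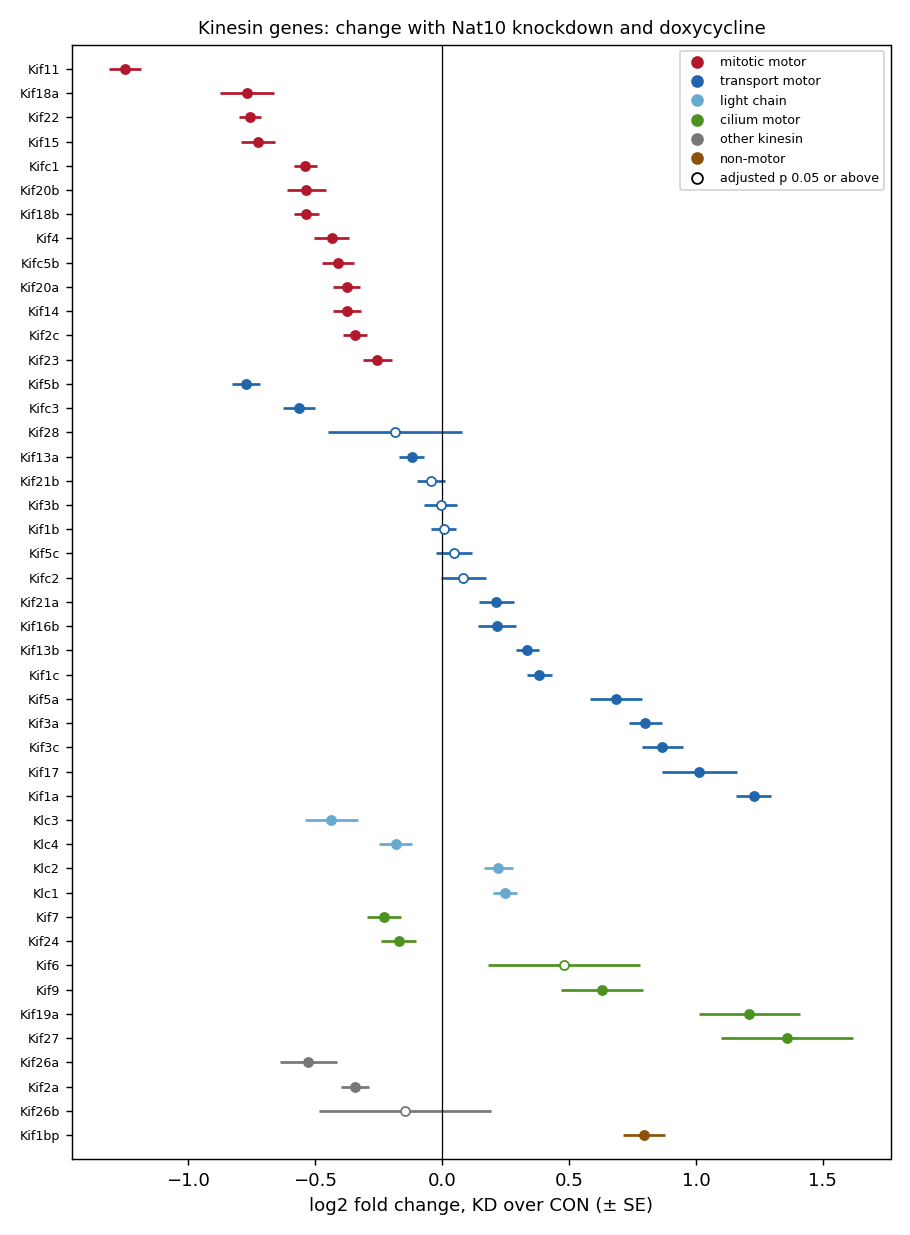
Change of each of the 45 tested kinesin genes, as log2 fold change KD over CON with its SE (horizontal axis), 1 gene per line and coloured by class. Filled points passed at an adjusted p under 0.05. All 13 mitotic motors lie left of 0, from -1.25 for Kif11 to -0.25 for Kif23, while transport motors spread from -0.77 for Kif5b to 1.23 for Kif1a.

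The balance between both sets also shifted in raw counts within each library, a ratio that needs no scaling but shows only that the sets changed unequally. Counts of all mitotic motors divided by those of all transport motors gave 1.55, 1.49 and 1.54 for the 3 CON libraries. The same ratio was 0.922, 0.935 and 0.967 for the 3 KD libraries. Mitotic motors thus took more counts than transport motors in each CON library and fewer in each KD library. These counts are not corrected for gene length, and longer transcripts give more reads. Whether a ratio lies above or below 1 therefore does not show which set had more transcripts. As a share of library totals, without TMM, kinesins overlapped between groups, at 0.27 to 0.273% in CON and 0.273 to 0.279% in KD. The mitotic share went from 0.14 to 0.143% down to 0.11 to 0.116% and the transport share from 0.0914 to 0.0944% up to 0.117 to 0.12%. With TMM all kinesins summed to 2927 to 2956 CPM in CON and less, 2516 to 2575 CPM, in KD. Mitotic motors then went from 1523 to 1547 CPM down to 1012 to 1066 CPM. Transport motors went from 991 to 1023 CPM up to 1083 to 1102 CPM.

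Promoter sequence is shown because the mitotic set moved together and mitotic genes are known for 2 short promoter elements. One is the cell cycle homology region (CHR), which binds the MuvB complexes that time late cell cycle genes, searched as TTTGAA or TTCGAA. The other is the CCAAT box, bound by NF-Y, searched as CCAAT. Both strands were read over the 250 bases before each RefSeq start site on GRCm38.p6, and neither element overlaps the other in the stretches printed. Each line gives the 150 bases just before the start site, 5′ to 3′ on the gene's strand, with matches in capitals (TTCAAA and ATTGG are the reverse complements of TTTGAA and CCAAT). Shown is every mitotic or transport motor that passed the test, had a listed start within 300 bases of its annotated one and a stretch free of annotated exons. The first 5 genes are mitotic motors that fell and the last 3 are transport motors that rose.
Kif11: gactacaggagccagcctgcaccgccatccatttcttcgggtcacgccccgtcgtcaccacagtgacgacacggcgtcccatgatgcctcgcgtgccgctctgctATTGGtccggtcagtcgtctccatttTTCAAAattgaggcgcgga
Kif18b: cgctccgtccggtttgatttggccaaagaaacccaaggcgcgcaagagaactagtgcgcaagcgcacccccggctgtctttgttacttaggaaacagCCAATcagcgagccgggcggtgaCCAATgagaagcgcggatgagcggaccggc
Kif20b: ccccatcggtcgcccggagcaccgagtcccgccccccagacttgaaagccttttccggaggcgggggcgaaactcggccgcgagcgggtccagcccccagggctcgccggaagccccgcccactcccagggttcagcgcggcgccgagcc
Kifc5b: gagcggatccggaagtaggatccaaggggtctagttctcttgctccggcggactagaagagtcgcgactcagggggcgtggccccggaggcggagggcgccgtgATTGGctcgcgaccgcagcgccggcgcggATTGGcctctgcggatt
Kif23: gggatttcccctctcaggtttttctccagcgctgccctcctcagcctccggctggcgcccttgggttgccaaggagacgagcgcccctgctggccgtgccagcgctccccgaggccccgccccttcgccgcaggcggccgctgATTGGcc
Kif3c: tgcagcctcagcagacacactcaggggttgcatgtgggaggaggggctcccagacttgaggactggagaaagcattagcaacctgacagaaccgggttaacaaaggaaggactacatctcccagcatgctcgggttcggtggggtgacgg
Kif1c: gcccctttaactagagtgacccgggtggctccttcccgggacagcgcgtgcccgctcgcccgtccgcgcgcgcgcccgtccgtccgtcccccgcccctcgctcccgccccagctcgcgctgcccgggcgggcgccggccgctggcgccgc
Kif21a: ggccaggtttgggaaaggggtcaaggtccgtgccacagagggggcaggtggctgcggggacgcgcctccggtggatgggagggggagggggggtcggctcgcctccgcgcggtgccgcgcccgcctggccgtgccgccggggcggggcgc
These stretches lie at chr19:37376232-37376381 (forward strand) for Kif11, chr11:102925125-102925274 (reverse strand) for Kif18b, chr19:34922208-34922357 (forward strand) for Kif20b, chr17:26916941-26917090 (forward strand) for Kifc5b, chr9:61946800-61946949 (reverse strand) for Kif23, chr12:3364982-3365131 (forward strand) for Kif3c, chr11:70700398-70700547 (forward strand) for Kif1c and chr15:91049952-91050101 (reverse strand) for Kif21a, and none overlaps an exon of GENCODE M21.

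In Kif11 a CCAAT box at bases -45 to -41 was followed by a CHR match at -19 to -14, counted from the start site. Kif18b held 2 CCAAT boxes, at -53 to -49 and -30 to -26, and no CHR match in its 250 bases. Kif20b, which also fell, held neither element there, while Kif3a, which rose, held a CCAAT box at -18 to -14 (its stretch overlaps an exon and is not shown). A promoter was listed for 37 of the 49 genes. Of 13 mitotic motors with one, 9 held a CCAAT box and 5 a CHR match, and 3 (Kif11, Kif22 and Kif14) held both. These 13 are not the 13 that fell. Kif2b, which was not tested, is among them and adds to each count of CCAAT boxes in mitotic motors given here. Kif20a, which fell, had no listed promoter. Of 11 transport motors with one, 3 held a CCAAT box and 1 a CHR match (Kif1a, at its second listed start), and 0 held both. Over all 32851 listed promoters, counted singly and not by gene, 33.8% held a CCAAT box, 17.1% a CHR match and 6.02% both. Counted singly, 9 of 13 promoters of mitotic motors and 4 of 13 of transport motors held a CCAAT box. A CHR match was in 5 and 1 of them. The listed start lay more than 300 bases inside the annotated gene for 3 of the mitotic motors (Kif2c, Kif14 and Kif4) and for the transport motor Kif17. The same held for the second listed start of Kif1a. Without those windows 7 of 10 mitotic motors held a CCAAT box and 3 of 10 a CHR match. For transport motors the counts were then 3 of 10 and 0 of 10. The shares over all listed promoters were not restricted in this way. These matches describe letters in a window and were not tested as binding sites.

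Kif11 had the deepest fall of all kinesins. It encodes Eg5, the motor that slides antiparallel microtubules apart to separate the spindle poles. Its level was 211, 195 and 199 CPM in the CON libraries, and 78, 82.9 and 93.9 CPM in those of KD. Every KD library was below every CON library, as was the case for each of the 13 tested mitotic motors. That order, KD wholly below CON, was seen in 32.8% of all genes tested. The mean fell 2.38-fold, from 202 ± 8.35 to 84.9 ± 8.18 CPM (log2 fold change -1.25, SE 0.0624, edgeR adjusted p = 1.66e-10). Kif15, which can stand in for Kif11 in keeping spindles bipolar, had 106, 98.9 and 101 CPM in CON and 56.2, 60.3 and 69 CPM in KD, a 1.65-fold fall (log2 fold change -0.72, SE 0.0672, adjusted p = 1.68e-07).

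The chromosome-arm motor gene Kif22, which pushes chromosomes toward the spindle equator, had 154, 154 and 156 CPM in CON and 91.8, 92.3 and 91 CPM in KD. Its replicates lay closest together of the mitotic set relative to their mean, and it fell 1.69-fold (log2 fold change -0.76, SE 0.0439, adjusted p = 8.93e-10). Kifc1 encodes the minus-end motor HSET, which gathers spindle poles. It had 222, 236 and 234 CPM in CON and 163, 162 and 152 CPM in KD, a 1.45-fold fall (log2 fold change -0.54, SE 0.0464, adjusted p = 7.32e-08). Its close relative Kifc5b fell 1.33-fold, from 90.4 ± 2.21 to 68 ± 6.09 CPM. Of the different 100-base words in annotated Kifc1 transcripts, 17% also occur in Kifc5b, so part of the reads of either gene could come from the other.

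Motors of microtubule ends also fell. Kif18b, which acts at the plus ends of astral microtubules, had 116, 113 and 110 CPM in CON and 81, 78 and 74.8 CPM in KD (1.45-fold lower, log2 fold change -0.53, SE 0.0498, adjusted p = 1.74e-07). Its relative Kif18a, which dampens the movements of aligned chromosomes, fell 1.7-fold from a lower level, from 30.2 ± 3.55 to 17.8 ± 2.69 CPM. Kif2c, which encodes the microtubule-shortening protein MCAK, fell 1.27-fold to 95 ± 3.23 CPM. Kif2b, another of the microtubule-shortening family, was not tested, with counts of 0, 0 and 2 in CON against 2, 2 and 0.

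Motor genes of the central spindle and cytokinesis fell by 1.19 to 1.45-fold. Kif20a, which encodes the central spindle motor MKLP2, had 144, 146 and 139 CPM in CON and 112, 104 and 116 CPM in KD (1.3-fold lower, log2 fold change -0.38, SE 0.0515, adjusted p = 1.12e-05). Of its exonic bases 29.3% are shared with Cdc23 on the opposite strand, and as no strand setting is given, reads of the pair cannot be told apart. The chromokinesin gene Kif4, whose protein works with PRC1 at the midzone, fell 1.35-fold, and 15.1% of its exonic bases are shared with Pdzd11 on the other strand. Kif14, a midbody motor gene, fell 1.3-fold and Kif20b 1.45-fold. Kif23, which encodes the motor of centralspindlin, fell 1.19-fold from 111 ± 4.71 to 93 ± 6.5 CPM (adjusted p = 0.0011), the smallest fall of the set, and it did not pass with libraries scaled by totals alone (log2 fold change -0.03, adjusted p = 0.709).

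**Figure D2:**
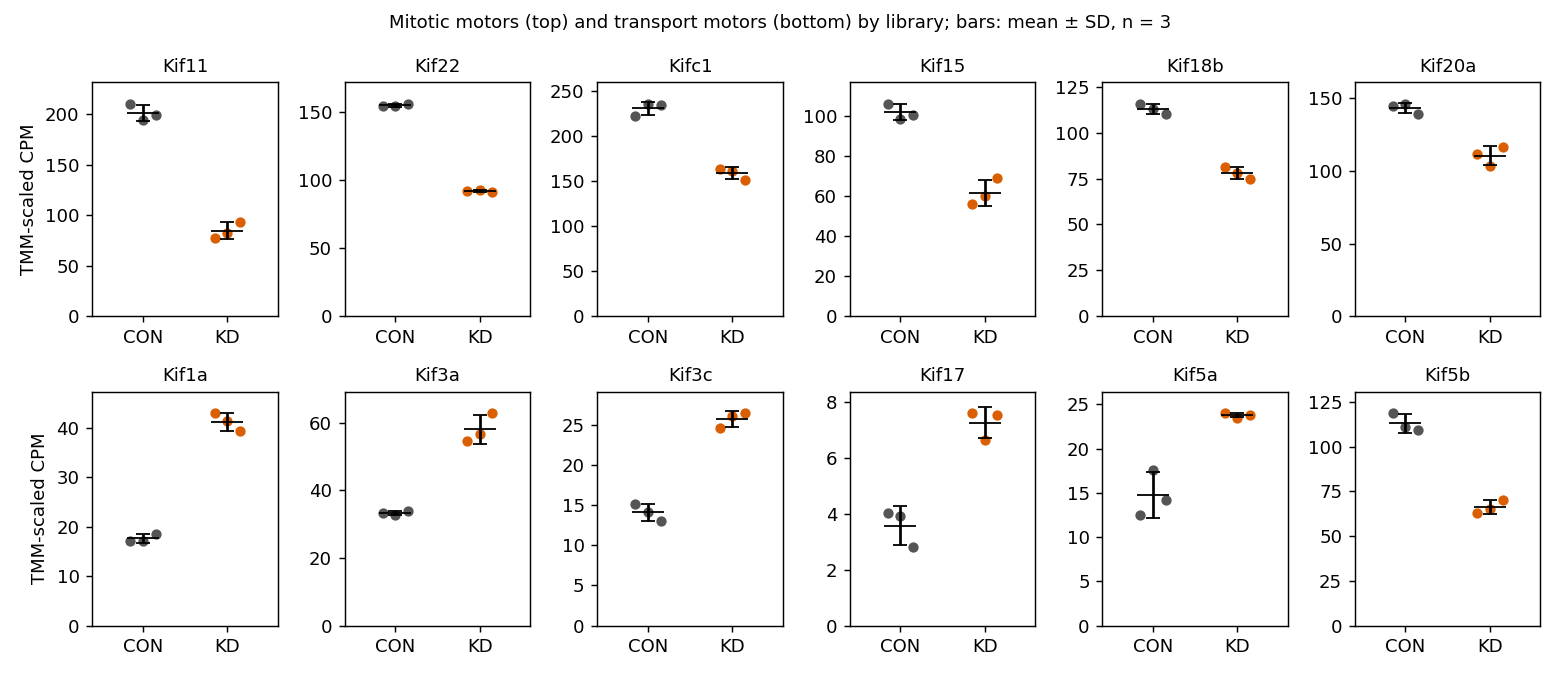
Level in each library (vertical axis, TMM-scaled CPM from 0) for 6 mitotic motors (top) and 6 transport motors (bottom). Points are libraries and bars the mean ± SD (n = 3). The groups do not overlap in any panel, and in the bottom row Kif5b is the gene that is lower in KD. The 6 transport motors were not picked by smallest p. Of all 18 transport motors 9 rose, 3 fell and 6 did not pass. Groups did not overlap in 67.1% of all genes tested.

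The largest rise among transport motors was that of Kif1a, the neuronal motor of synaptic vesicle precursors. Its level was 17.1, 17.1 and 18.6 CPM in CON and 43, 41.4 and 39.4 CPM in KD. The groups stood well apart, and the mean rose 2.34-fold (log2 fold change 1.23, SE 0.0701, edgeR adjusted p = 7.35e-10). Its relative Kif1b, a motor gene for mitochondria and vesicles, had 141, 143 and 135 CPM in CON and 136, 135 and 149 CPM in KD. These ranges overlapped and Kif1b did not pass (log2 fold change 0.01, SE 0.0505, adjusted p = 0.928), though it was higher when libraries were scaled by totals alone (0.23, adjusted p = 0.000798). Counts of Kif1a per count of Kif1b went from 0.12 to 0.138 in CON to 0.264 to 0.316 in KD. Kif1c, of the same subfamily, rose with groups well apart, at 134, 149 and 140 CPM in CON and 189, 187 and 176 CPM in KD (1.3-fold higher, log2 fold change 0.38, SE 0.0499, adjusted p = 6.78e-06).

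Kinesin-1, the classical transport motor, changed in opposite directions among its subunits. Kif5b, its ubiquitous heavy chain gene, had 119, 111 and 109 CPM in CON and 62.8, 65.2 and 70.4 CPM in KD. It fell 1.71-fold, the deepest fall of any transport motor (log2 fold change -0.77, SE 0.0563, adjusted p = 1.09e-08). Kif5a, a heavy chain gene known for neuronal expression, had 12.5, 17.6 and 14.2 CPM in CON and 24, 23.5 and 23.8 CPM in KD, a 1.61-fold rise (log2 fold change 0.69, SE 0.103, adjusted p = 2.92e-05). The other neuronal heavy chain gene, Kif5c, had 41.6, 37.6 and 35.1 CPM in CON and 37.2, 40.9 and 40 CPM in KD. Its groups overlapped and it did not pass (log2 fold change 0.05, SE 0.0717, adjusted p = 0.585), but it was higher with libraries scaled by totals alone (0.28, adjusted p = 0.00351).

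Within each library the balance of the heavy chains had shifted. For every count of Kif5b there were 0.105, 0.158 and 0.13 counts of Kif5a in CON and 0.383, 0.36 and 0.338 in KD. For Kif5c the ratio was 0.35, 0.339 and 0.321 in CON and 0.593, 0.627 and 0.568 in KD. Both ratios were higher in every KD library than in any CON library, and these counts are not corrected for gene length.

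**Figure D3:**
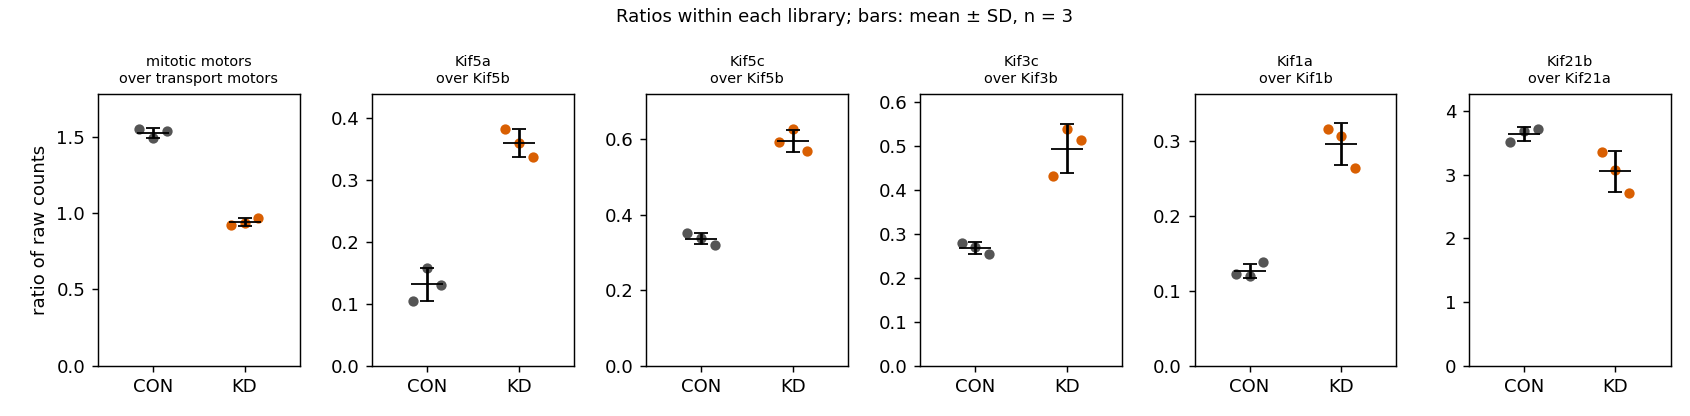
Ratio of raw counts within each library (vertical axes, each from 0) for all mitotic over all transport motors and for 5 pairs of related transport motors. Points are libraries and bars the mean ± SD (n = 3). The first ratio lies above 1 in CON and below 1 in KD, the Kif5a, Kif5c, Kif3c and Kif1a ratios are higher in KD, and that of Kif21b over Kif21a is lower. Counts are not corrected for gene length, so a ratio of 1 does not mean equal transcript numbers.

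Of the 4 light chains of kinesin-1, 2 rose and 2 fell, where 32.2% of all genes tested were called higher and 30.8% lower. With libraries scaled by totals alone 2 rose and 0 fell, against 45.9% and 19.6% of all genes. Klc1 had 88.5, 89.8 and 90.5 CPM in CON and 108, 107 and 104 CPM in KD, a 1.19-fold rise (log2 fold change 0.25, SE 0.0461, adjusted p = 0.000229). Klc2 rose 1.17-fold, with 73.4, 73.9 and 75.8 CPM in CON and 92.6, 86.7 and 80.9 CPM in KD (adjusted p = 0.00278). Klc3 fell 1.35-fold, from 16.5, 20.3 and 18.2 CPM to 14.6, 14.4 and 11.6 CPM (adjusted p = 0.00193). Klc4 fell 1.14-fold, from 33, 32.3 and 34.4 CPM to 30.2, 28.9 and 28.6 CPM (adjusted p = 0.0211), and did not pass without CON replicate 3 (adjusted p = 0.0838) or KD replicate 2 (adjusted p = 0.0621). With libraries scaled by totals alone neither fall passed and Klc4 turned (log2 fold change 0.0455). Klc3 shares 28.1% of its exonic bases with Ercc2 and Klc2 10.6% with AC124502.1, each on the opposite strand.

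Kinesin-2 carries cargo in axons and along cilia. Its forms with Kif3b or Kif3c are a pair of motor subunits with the adaptor KAP3, encoded by Kifap3. Kif3a, the subunit these forms share, had 33.4, 32.7 and 33.8 CPM in CON and 54.7, 56.5 and 62.9 CPM in KD, a 1.74-fold rise (log2 fold change 0.8, SE 0.0648, adjusted p = 3.59e-08). Its general partner Kif3b had 54.1, 52.1 and 51.4 CPM in CON and 57, 48.5 and 51.6 CPM in KD and did not pass (log2 fold change -0.005, SE 0.0648, adjusted p = 0.955), though it was higher with libraries scaled by totals alone (0.22, adjusted p = 0.00654). The partner known from neurons, Kif3c, had 15.2, 14.1 and 13 CPM in CON and 24.6, 26.1 and 26.4 CPM in KD, a 1.82-fold rise (log2 fold change 0.87, SE 0.0812, adjusted p = 1.81e-07). Counts of Kif3c per count of Kif3b were 0.253 to 0.28 in CON and 0.431 to 0.539 in KD. Of the exonic bases of Kif3c 43.3% are shared with Gm48512 and 1110002L01Rik on the opposite strand, whose reads cannot be separated from its own. Kif17, a kinesin-2 motor that works as a homodimer in dendrites and cilia, rose 2.02-fold from 4.02, 3.93 and 2.79 CPM to 7.6, 6.63 and 7.54 CPM (log2 fold change 1.01, SE 0.149, adjusted p = 2.32e-05).

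The remaining transport motors moved in both directions. Kif13b, whose protein carries membrane cargo, had 130, 129 and 131 CPM in CON and 170, 160 and 162 CPM in KD (1.26-fold higher, log2 fold change 0.34, SE 0.045, adjusted p = 9.02e-06). Its relative Kif13a had 82, 85.7 and 83.8 CPM in CON and 77.9, 75.7 and 77.8 CPM in KD, 1.09-fold lower (adjusted p = 0.042). That call was lost without CON replicate 2, CON replicate 3, KD replicate 1 or KD replicate 2 (adjusted p = 0.137, 0.0964, 0.0534 and 0.122), and the direction turned with libraries scaled by totals alone (log2 fold change 0.11). Kif16b, a motor gene of early endosomes, rose 1.16-fold (adjusted p = 0.0186), which did not pass without CON replicate 1, 2 or 3 or without KD replicate 3 (adjusted p = 0.0574, 0.0657, 0.0524 and 0.0724). Kifc3, a minus-end motor gene linked to cell junctions, fell 1.48-fold from 42.7, 45.3 and 45.2 CPM to 30.3, 30.9 and 28.8 CPM (log2 fold change -0.56, SE 0.0622, adjusted p = 1.15e-06), with 27.5% of its exonic bases shared with genes on the other strand.

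Kif21a and Kif21b encode motors that restrain microtubule growth. Kif21a rose 1.16-fold, from 27.2 ± 0.964 to 31.5 ± 1.88 CPM (adjusted p = 0.0141), and did not pass without CON replicate 1 (adjusted p = 0.0604) or CON replicate 3 (adjusted p = 0.0642). Kif21b had 93.5, 104 and 98.6 CPM in CON and 101, 95.4 and 91.1 CPM in KD and did not pass (log2 fold change -0.04, SE 0.0552, adjusted p = 0.51), but it was higher with libraries scaled by totals alone (0.19, adjusted p = 0.00745). Kifc2, a minus-end motor gene known from neurons, had 16.2, 18.5 and 17.5 CPM in CON and 18, 20.2 and 17.1 CPM in KD and did not pass either (log2 fold change 0.08, SE 0.0878, adjusted p = 0.423). It too was higher with libraries scaled by totals alone (0.31, adjusted p = 0.0054). Kif28 had counts of 40, 60 and 32 in CON against 45, 51 and 40 in KD and did not pass (log2 fold change -0.19, SE 0.265, adjusted p = 0.563), and its sign turned with libraries scaled by totals alone (0.0428).

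Of the 7 transport motors best known from neurons (Kif1a, Kif3c, Kif5a, Kif5c, Kif17, Kif21b and Kifc2), 4 rose, 0 fell and 3 did not pass. The median change, in log2, was 0.69. Over all genes tested 32.2% were called higher and 30.8% lower. All 7 were higher with libraries scaled by totals alone, where 45.9% of all genes were. The other 11 transport motors gave 5 that rose, 3 that fell and a median of 0.01. Neuron markers did not move one way beside them. Of 11 with a row 5 rose, 3 fell and 3 did not pass, and their summed level was 161.5 to 162.1 CPM in CON and 96 to 105 CPM in KD. That fall is carried by Stmn2 and Tubb3. Together they went from 130.2 to 133.4 CPM in CON to 25.8 to 28.6 CPM in KD. The other 9 markers together went from 28.3 to 31.9 CPM up to 70.2 to 77 CPM. Syp (mean 0.903 CPM in CON and 29.1 CPM in KD) and Map2 (9.37 and 26 CPM) carry that rise, while Nefl fell 2.62-fold. Syp, a synaptic vesicle gene, rose 32.1-fold and Map2, a dendritic microtubule gene, 2.77-fold, while Stmn2 and Tubb3, genes of axonal and neuronal microtubules, fell 4.34-fold and 6.59-fold. These 4 and Nefl were picked after their values were seen. Dcx, a marker of young neurons, had no row. Fibroblast markers had summed levels of 25.5 to 29.5 CPM in CON and 53.8 to 59.8 CPM in KD (4 of the 5 with a row rose, 1 fell, and Dcn and Lum had no row). The part of either cell type in the motor changes was not tested.

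Proteins of cilia and flagella included the largest estimated rise of any kinesin, that of Kif27, at a low level. Its SE was too wide to rank it above Kif1a (log2 fold change 1.23, SE 0.0701). Kif27, a gene of motile cilia, had counts of 49, 29 and 26 in CON against 87, 117 and 110 in KD, a 2.57-fold rise to 2.6 ± 0.478 CPM (log2 fold change 1.36, SE 0.26, adjusted p = 0.000292). Kif19a, which limits the length of cilia, had counts of 91, 62 and 80 in CON against 266, 227 and 149 in KD, 2.31-fold higher (log2 fold change 1.21, SE 0.2, adjusted p = 7.49e-05). Kif9, a flagellar gene, had counts of 72, 92 and 84 in CON against 153, 169 and 131 in KD, 1.55-fold higher (adjusted p = 0.00321). KD lay above CON for each of these 3 genes, an order that 34.4% of all genes tested showed. Kif6 had 20 to 49 counts per library, overlapped between groups and did not pass (log2 fold change 0.48, SE 0.299, adjusted p = 0.176), but it passed with libraries scaled by totals alone (0.71, adjusted p = 0.0478).

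Kif7 and Kif24, the abundant members of that class, moved the other way by small amounts. Kif7, a regulator of Hedgehog signalling at the tip of the primary cilium, had 28.9, 31.2 and 31.4 CPM in CON and 25.6, 26.5 and 26.1 CPM in KD, 1.17-fold lower (adjusted p = 0.00796). Kif24, which restrains cilium formation at the centriole, had 27.7, 28.3 and 27.5 CPM in CON and 25.1, 25.8 and 23.2 CPM in KD, 1.12-fold lower (adjusted p = 0.0435). That call was lost on leaving out any 1 library other than KD replicate 2 (adjusted p from 0.0607 to 0.118) and with DESeq2 (adjusted p = 0.0649). Neither was lower with libraries scaled by totals alone, where the log2 fold changes were 0.002 for Kif7 and 0.06 for Kif24. Of the exonic bases of Kif7 20.3% are shared with genes on the opposite strand.

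Outside these classes, Kif2a, a microtubule-shortening gene of spindles and neurons, had 75.2, 72.1 and 68.6 CPM in CON and 57.3, 55.7 and 57.3 CPM in KD. It fell 1.27-fold (log2 fold change -0.34, SE 0.0542, adjusted p = 5.03e-05), though not past the test with libraries scaled by totals alone (-0.11, adjusted p = 0.0797), and 19.2% of its exonic bases are shared with Dimt1 on the other strand. Kif26a, a family member without motor activity, fell 1.44-fold from 33.1, 32.7 and 30.6 CPM to 24.4, 25.4 and 17 CPM (log2 fold change -0.53, SE 0.114, adjusted p = 0.00082). Its relative Kif26b had 19 to 42 counts per library and did not pass (log2 fold change -0.15, SE 0.338, adjusted p = 0.725), and its sign turned with libraries scaled by totals alone (0.0804). Kif12 had 0, 0 and 1 counts in CON and 0 in each KD library. The pseudogenes Kif4-ps and Kifc5c-ps had at most 8 counts in any library, and like Kif12 and Kif2b they were not tested.

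Kif1bp, which encodes a protein that binds several kinesin motor domains and keeps them off microtubules, had 21.4, 22.8 and 23.7 CPM in CON and 37.6, 36.1 and 44.5 CPM in KD. It rose 1.74-fold (log2 fold change 0.8, SE 0.0827, adjusted p = 5.75e-07), with 10.1% of its exonic bases shared with 4933428P19Rik on the opposite strand.

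Levels of different genes were compared per length, by the deposited FPKM. Kifc1 was the highest kinesin in both groups, at 62.4 ± 1.82 FPKM in CON and 50.3 ± 1.96 in KD. In CON the 7 highest were all mitotic motors. Kifc1 was followed by Kif20a (30.5 ± 0.813), Kif18b (29.2 ± 0.835) and Kif22 (29.2 ± 0.152), then by Kif2c (25.5 ± 0.326), Kif11 (25 ± 1.09) and Kifc5b (22.6 ± 0.515). Among these, libraries overlapped between Kif20a and Kif18b, between Kif18b and Kif22, and between Kif2c and Kif11. Of the 48 pairs of neighbours in the order of all kinesins, 29 overlapped in CON and 35 in KD. In KD the transport motor Kif1c, at 27.4 ± 0.969 FPKM, had rank 3, within the spread of Kif20a (27.6 ± 1.61), and the light chain Klc2 had rank 6, overlapping Kif2c above it, which in turn overlapped Kif18b. Kif11 went from rank 6 to rank 14, Kif5b from rank 10 to rank 20, and Kif1a from 1.75 to 4.79 FPKM. FPKM values are scaled by library totals only.

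**Figure D4:**
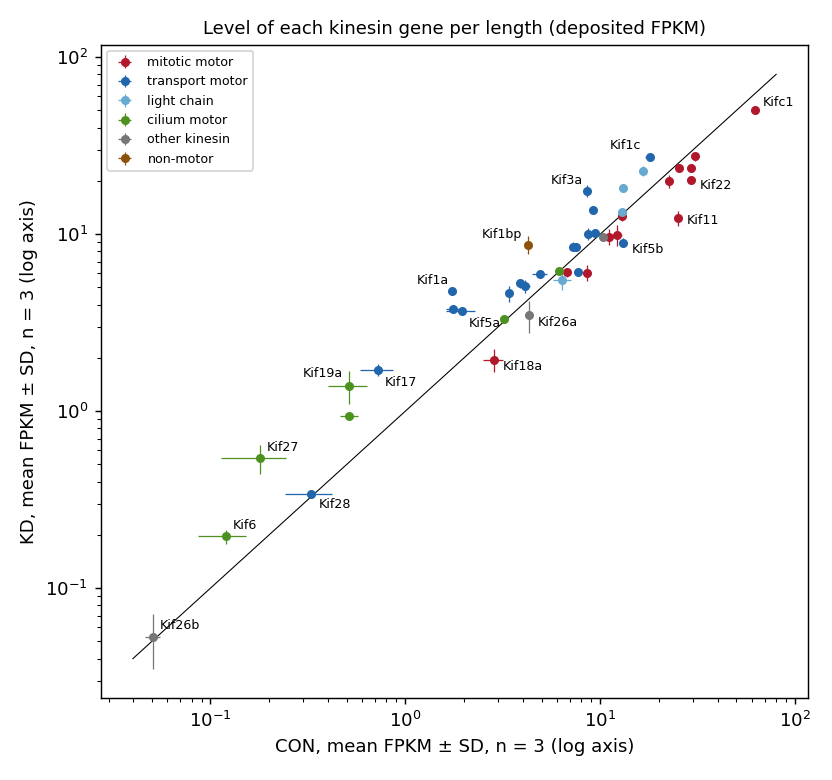
Mean deposited FPKM of each kinesin gene in CON (horizontal axis) and KD (vertical axis), both on log axes, with SD bars (n = 3), coloured by class and with the line of equal values. The 4 genes with fewest reads are left out. Kif11 and Kif5b lie below the line, and Kif1a, Kif3a, Kif17 and Kif27 above it.

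Genes that work with mitotic kinesins fell with them. Of 20 partners, 18 fell, 0 rose and 2 did not pass. The median change, in log2, was -0.62. Their summed level went from 3206 to 3319 CPM in CON to 2023 to 2214 CPM in KD. Over all genes 30.8% were called lower and 32.2% higher. Under scaling by totals alone 16 partners fell and 1 rose, against 19.6% and 45.9% of all genes. Prc1, the midzone cross-linker that Kif4 binds, fell 2.47-fold from 165 to 66.6 CPM, Nusap1, a spindle bundling gene, fell 2.39-fold, and Anln, which organises the cleavage furrow, fell 1.89-fold. Cenpe, a kinetochore kinesin whose symbol falls outside the name rule and which was picked after its value was seen, fell 1.26-fold (adjusted p = 0.000575), but not past the test with libraries scaled by totals alone (adjusted p = 0.215).

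Cargo adaptors moved in both directions. Of 26, 25 were tested, 12 rose, 7 fell and 6 did not pass. The median change, in log2, was 0.14, and 18 rose and 1 fell under scaling by totals alone. Among all genes the calls were 32.2% higher and 30.8% lower, and 45.9% and 19.6% under that scaling. Madd, which links vesicles to Kif1a and Kif1b, rose 3.18-fold from 31.7 to 101 CPM (adjusted p = 1.08e-12). Mapk8ip3, which binds kinesin light chains, rose 1.53-fold, and Trak2, which joins mitochondria to kinesin-1, rose 1.49-fold. Map7, which recruits kinesin-1 to microtubules, fell 1.35-fold, and the kinesin-1 adaptor genes Fez1 and Fez2 fell 1.4-fold and 1.19-fold, neither of them past the test with libraries scaled by totals alone (adjusted p = 0.0771 and 0.819). Kifap3, the kinesin-2 adaptor gene, was picked after its value was seen. It had 92.4 CPM in CON and 99.7 CPM in KD and did not pass (log2 fold change 0.11, adjusted p = 0.0704), though it was higher with libraries scaled by totals alone (0.34, adjusted p = 2.69e-05).

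**Figure D5:**
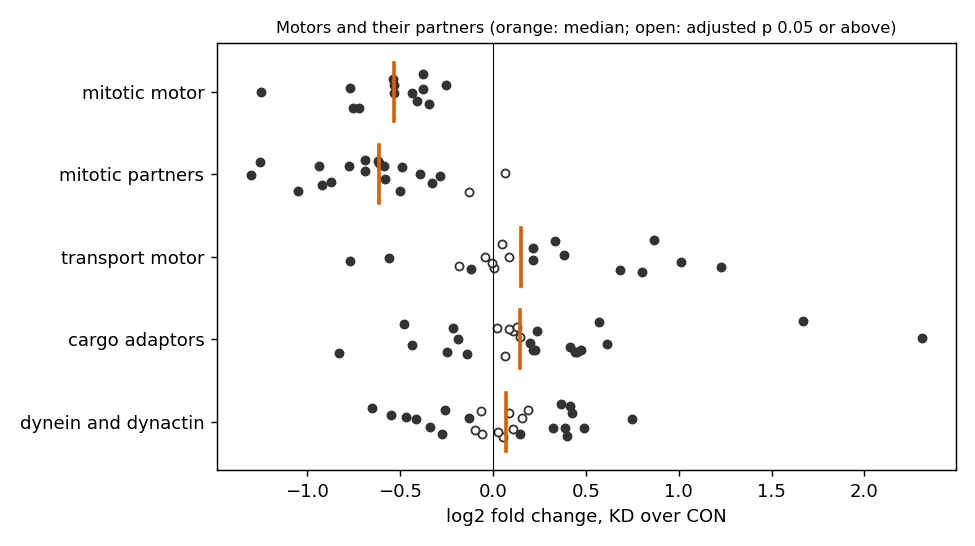
Log2 fold change KD over CON (horizontal axis) of tested genes in 5 lists, 1 point per gene with random vertical offset. Orange bars are medians, and open points did not pass at an adjusted p of 0.05. Medians are -0.53 for mitotic motors, -0.62 for mitotic partners, 0.15 for transport motors, 0.14 for cargo adaptors and 0.07 for dynein and dynactin.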

How the data were processed

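RNA from 6 libraries of E14 mouse embryonic stem cells, 3 CON and 3 KD, was analysed. Per the submitters' processing notes, FastQC 0.11.9, STAR 2.5.3a and featureCounts were used with genome build mm10. Annotation, strand and multi-mapping settings: not given in the sources used here. Per gene, the authors deposited raw counts and FPKM, per the file headers, and the FPKM values scale with library totals. The authors also deposited a log2 fold change and an adjusted p-value per gene, which were not used. Columns were matched to samples by treatment and number.

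Counts were tested with edgeR 4.0.16 in R 4.3.3: filterByExpr, TMM (factors 0.922 to 1.08), robust quasi-likelihood F-test, Benjamini-Hochberg adjustment over all 18019 genes, threshold 0.05. SE is the log2 fold change over the square root of F. The fit was also run on simulated counts in which few genes changed, unlike in these data, so that run could not check the choice of scaling. In all 13 alternatives were run, among them DESeq2 1.42.0. Of counts from 1 to 20, 70 to 71.7% were even in each library, so low counts stand for fewer fragments than their value. A single count was worth 0.0253 to 0.0296 CPM. Positions and exons are from GENCODE M21 (GRCm38), promoters from RefSeq (GRCm38.p6). Genes and lists were chosen with earlier results of these data known. All kinesin genes were reported. Values of each library were given for up to 6 per class and direction by smallest p, for Kif5a (added after its values were seen, to set it beside Kif5b), and for those of at least 1 CPM that did not pass. Partner lists were represented by up to 3 genes per direction, and other genes named were picked after their values were seen.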

Additional observations from a re-analysis of the deposited data

How the results depend on the processing

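All 13 falls of mitotic motors kept their direction in each of the 13 alternatives, and passed in each except Kif23 with libraries scaled by totals alone. Of the 37 kinesin genes that passed, 28 kept direction and call in every alternative that tested them, 4 changed only with libraries scaled by totals alone (Klc3, Kif7, Kif23 and Kif2a), 3 changed both there and elsewhere (Kif13a, Kif24 and Klc4), and 2 only on leaving out a library (Kif16b and Kif21a). Under scaling by totals alone the mitotic median was -0.31 and the transport median 0.38, 14 transport motors rose, and all genes lower in KD numbered 3535 instead of 5543, as calls higher in KD went from 51.1 to 70.1% of all calls and from 40.5 to 58.3% of kinesin calls. The log2 fold changes that turned under it were those of Kif21b (0.19), Kif26b (0.0804), Kif28 (0.0428), Kif3b (0.22), Kif24 (0.0584), Kif7 (0.00168), Kif13a (0.11) and Klc4 (0.0455). Kif1b turned with DESeq2 (-0.00524) and with DESeq2 size factors in edgeR (-0.00799).

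Leaving out 1 library at a time gave 13 to 15 kinesin genes higher and 19 to 21 lower, 13 mitotic motors lower each time and 7 to 9 transport motors higher. Among genes that did not pass, the sign turned in some of these fits for Kif1b (-0.0476 to 0.0256), Kif3b (-0.0774 to 0.0413), Kif5c (-0.0128 to 0.105), Kif26b (-0.46 to 0.0295) and Kif28 (-0.34 to 0.0497). The labels number the libraries of both groups from 1 to 3, but nothing says that a number marks a shared origin. Deviations of same-numbered libraries from their group means correlated at -0.157, 0.0609 and -0.0825, so the numbers were not taken as pairs. With the replicate block 15 kinesin genes rose and 20 fell, as Kif13a (adjusted p = 0.0985) and Kif24 (adjusted p = 0.0709) no longer passed. Counts divided by 2, for mates counted separately, gave 15 and 22. Depth limits Kif26b, Kif28, Kif6 and Kif27, each with at most 117 counts in a library.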

Other observations

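Dynein, the motor of the opposite direction, and its cofactor dynactin were called higher and lower at shares near those of all genes (32.2% and 30.8%). Of 27 genes 26 were tested, 9 rose, 8 fell and 9 did not pass. The median change, in log2, was 0.07. With libraries scaled by totals alone 16 rose and 4 fell, against 45.9% and 19.6% of all genes. Their summed level was 3538 to 3579 CPM in CON and 3335 to 3367 CPM in KD. Dync1li1, a light intermediate chain gene, fell 1.46-fold from 171 to 117 CPM, Hook1, an adaptor gene for endosomes, fell 1.57-fold, and Pafah1b1, which encodes LIS1, fell 1.33-fold. Actr1a, of the dynactin filament, rose 1.4-fold from 87.2 to 122 CPM, Dynlt3, a light chain gene, rose 1.68-fold, and Dctn1, the dynactin subunit that holds the microtubule, rose 1.31-fold.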
